A study of Mus musculus with 20 samples.

Results

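Footpad skin of adult Tabby mice was compared with footpad skin of Tabby pups at postnatal day 5 (P5), to describe how the skin matures where eccrine sweat glands do not form. The comparison was chosen by sample title and rests on 4 of the 20 arrays of the series, 2 of adult Tabby footpad and 2 of P5 Tabby footpad. Adults were taken at postnatal day 56. The other 16 arrays were the remaining Tabby stages (embryonic day E17.5, P1 and P3) and wild-type (WT) footpad at the same 5 stages, with 2 arrays in each of the 10 groups. Per the labels all mice were C57BL6/J, the 2 samples of a group were biological replicates, and total RNA came from dissected footpad skin frozen after dissection. The labels used here do not give the sex or number of mice behind a sample. On every array the footpad RNA carried Cy3, and Cy5 carried 1 common reference, a pool of RNA from 11 mouse cell lines mixed with embryonic stem cell RNA. Values are log2 ratios of footpad over reference, so a value near 0 means equal signal and a positive value means more signal in footpad. An exact 0 was written where neither channel could be told from background. It occurred on at least 1 of the 4 arrays for 1023 of the probes tested below.

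Tabby is a mutation of the X-linked gene for ectodysplasin A, a signal of the tumour necrosis factor family that ectodermal placodes need to form. Mice without this signal lack eccrine glands, which in the mouse lie in the footpads, and have an altered hair coat, while the epidermis and dermis of the pad are formed. Between the first week and adulthood mouse skin leaves a phase of growth: dermal fibroblasts slow their deposition of fibrillar collagen, hair follicles of haired skin complete their first cycle, and the pad epidermis goes on to thicken and cornify. Footpad skin is a mixture of keratinocytes, fibroblasts, vessels, nerves, fat and blood cells, and in such bulk RNA fewer cells of a type and less RNA per cell cannot be told apart.

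The arrays carried 42006 distinct probes of 60 bases, which the files name by Z-number only. Of these, 32124 were tested, those whose Cy3 signal cleared background by the scanner software's test on 2 or more of the 20 arrays and that had a value in every group. Symbols could be given to few probes, those whose whole sequence occurs in a window around a RefSeq gene start, so most results below are given by probe and sequence. Of 718 symbols listed for skin, gland, hair, muscle, nerve, fat and blood cells and for the channels named in the series title, 1 was matched to a tested probe (Ndufa9, a subunit of mitochondrial complex I), so the tissue label could not be checked against marker genes here.

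The probes with the largest changes carry no gene name in the files, and their sequences are their identity. These were shown because they had the largest rises from P5 to adult and hold an open reading frame and no polyadenylation hexamer:
Z00026161-1: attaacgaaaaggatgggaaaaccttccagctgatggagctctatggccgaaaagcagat
Z00031175-1: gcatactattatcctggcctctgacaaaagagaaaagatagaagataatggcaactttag
Z00022843-1: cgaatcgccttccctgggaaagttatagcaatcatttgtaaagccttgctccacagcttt
Z00068916-1: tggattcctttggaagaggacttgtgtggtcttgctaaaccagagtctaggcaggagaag

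The next probes were chosen in the same way among the largest falls:
Z00018229-1: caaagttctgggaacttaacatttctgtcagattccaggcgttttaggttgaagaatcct
Z00034035-1: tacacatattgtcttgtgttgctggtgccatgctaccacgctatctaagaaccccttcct
Z00000799-1: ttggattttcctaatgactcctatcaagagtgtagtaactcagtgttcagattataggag
Z00050912-1: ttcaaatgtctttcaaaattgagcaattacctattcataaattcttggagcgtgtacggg

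A regular repeat of glycine, the Gly-X-Y pattern, is the hallmark of the collagen triple helix. In 4 probes of the array a glycine codon (GGN) begins every Gly-X-Y unit throughout, with at least 3 proline codons (CCN) between. The glycine codons are in capitals:
Z00070993-1: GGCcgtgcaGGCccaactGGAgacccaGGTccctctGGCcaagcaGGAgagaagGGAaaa
Z00033873-1: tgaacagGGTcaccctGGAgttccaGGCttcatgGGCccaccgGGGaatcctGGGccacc
Z00033896-1: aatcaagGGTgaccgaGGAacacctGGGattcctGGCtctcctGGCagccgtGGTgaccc
Z00022821-1: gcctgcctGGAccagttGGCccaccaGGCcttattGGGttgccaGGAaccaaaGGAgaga

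Proteins of hair, nail and horn are rich in cysteine, which cross-links keratin filaments. These 5 probes hold at least 7 cysteine codons (TGC or TGT) in 1 open frame, here in capitals, and are shown because their change differed between Tabby and WT:
Z00076571-1: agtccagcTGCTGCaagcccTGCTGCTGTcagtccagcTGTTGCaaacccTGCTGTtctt
Z00028279-1: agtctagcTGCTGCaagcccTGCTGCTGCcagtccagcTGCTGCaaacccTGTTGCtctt
Z00045261-1: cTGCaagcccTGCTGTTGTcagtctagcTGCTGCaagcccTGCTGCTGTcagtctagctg
Z00066950-1: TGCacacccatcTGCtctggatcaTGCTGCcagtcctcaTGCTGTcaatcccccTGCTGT
Z00060912-1: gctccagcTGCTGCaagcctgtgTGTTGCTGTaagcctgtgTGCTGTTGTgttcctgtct

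Trypsin-type proteases, among them the kallikreins of glands and epidermis, share a conserved sequence around the catalytic serine. The bases that match its back-translated motif, searched on both strands, are in capitals in the 2 probes whose change differed between genotypes:
Z00073950-1: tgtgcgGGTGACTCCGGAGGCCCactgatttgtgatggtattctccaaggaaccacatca
Z00076669-1: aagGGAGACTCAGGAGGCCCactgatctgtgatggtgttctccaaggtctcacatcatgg

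The linker between C2H2 zinc fingers, the commonest DNA-binding fold of mammalian transcription factors, was searched on both strands as a back-translated motif. The match is in capitals in the 2 such probes that fell most:
Z00025747-1: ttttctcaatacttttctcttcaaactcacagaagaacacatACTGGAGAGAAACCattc
Z00076281-1: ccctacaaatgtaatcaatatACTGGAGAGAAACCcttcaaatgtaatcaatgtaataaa

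Lastly, these 2 probes overlap, with the 46 bases they share in capitals, and both were called lower in adults:
Z00025051-1: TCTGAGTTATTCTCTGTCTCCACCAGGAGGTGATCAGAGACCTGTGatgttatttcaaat
Z00074756-1: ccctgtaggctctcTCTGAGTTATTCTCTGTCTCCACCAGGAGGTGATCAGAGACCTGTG

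Much of the measured transcriptome of Tabby footpad differed between P5 and adult. At an adjusted p under 0.05 (limma over 20 arrays, Benjamini-Hochberg), 18432 of 32124 probes were called (57.4%), 9969 higher in adults (31%) and 8463 lower (26.3%). Falls were larger than rises. The median called fall was 1.95-fold and the median called rise 1.61-fold. At least 2-fold, 4079 probes fell (12.7%) and 2710 rose (8.44%). At least 8-fold, 510 fell and 126 rose, and at least 64-fold, 31 fell and 10 rose. These counts, here and below, rest on the fitted ratios. They include probes not detected at P5 or not detected in adults, whose folds by the Cy3 bound given below can be far smaller. Over all probes tested, the median change was 0.08 on the log2 scale. The adult values of 9956 of the called rises and 8455 of the called falls did not overlap the P5 values. Over all probes tested, 41.8% did not overlap with adults higher and 33.5% with adults lower.

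**Figure D1:**
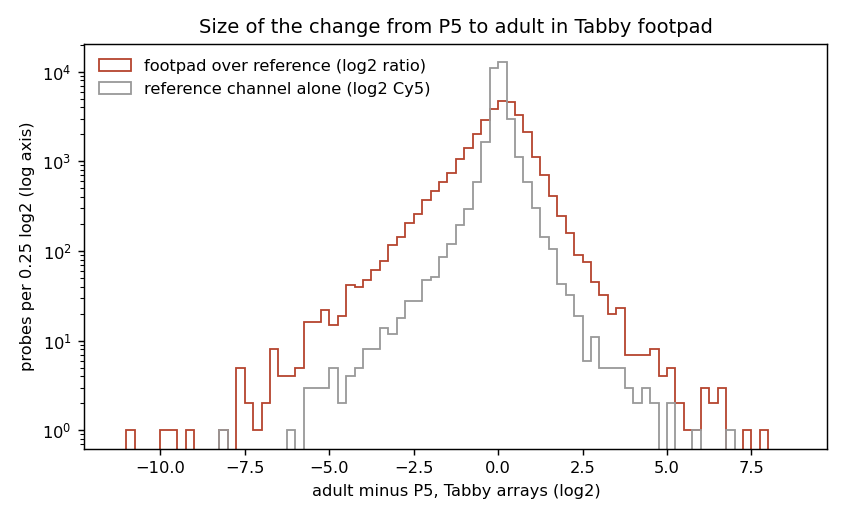
Number of probes (log axis) by the size of the difference between adult and P5 Tabby arrays, in bins of 0.25 log2, for the ratio of footpad over reference and for the Cy5 reference channel alone, over the 32124 probes tested. The ratio has the longer tail on the left, reaching -10.95, and the SD across probes was 1.05 for the ratio and 0.463 for the reference channel.

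The 4 arrays of a stage shared 1 slide, and the adult slide was scanned on another day than the P5 slide, so age and slide cannot be told apart in this comparison. The reference channel, which held the same RNA on every array, was called for 1656 probes between the same arrays (5.16%). Of these, 1175 were also called for the ratio, where 57.4% of all probes were. In 282 of the 1175 the reference and the ratio changed in opposite directions. With Cy3 alone, scaled to each array's median, 15925 of the 18432 kept their call and direction, and 37 were called in the opposite direction. The 2 adult Tabby arrays differed more than other replicates: the SD of their difference across probes was 0.547 in log2, against 0.358 for Tabby P5 and 0.342 to 0.421 for the other groups. With 1 array of these groups left out at a time, 15423 to 17715 probes were called. Nothing in the labels says how the replicates were raised. The p-values rest on a spread between replicates pooled over the 10 groups, while the adult Tabby replicates differed most. With only the 4 Tabby arrays in the fit, 11717 probes were called.

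The 12 largest rises (5.74 to 7.87 in log2) were of transcripts that both adult arrays detected. In 7 of them Cy3 was not well above background on either P5 array, and the other 5 were detected on both. Z00026161-1 had log2 ratios of -4.06 and -3.57 at P5 and 4.31 and 3.79 in adults, a rise of 7.87 ± 0.41 (SE, limma adjusted p = 1.68e-08). Both adult values lay far above both P5 values. Z00022843-1 stood at -4.12 and -4.03 at P5 and at 2.76 and 2.49 in adults, a rise of 6.70 ± 0.15 (limma adjusted p = 4.33e-11). Z00070340-1 was at -2.37 and -2.32 at P5 and at 4.49 and 4.17 in adults, a rise of 6.68 ± 0.16 (limma adjusted p = 6.35e-11). Replicates of these probes lay close together beside the size of the change.

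Z00074506-1 ran close to Z00070340-1, at -2.15 and -1.99 at P5 and 4.42 and 4.16 in adults, a rise of 6.36 (limma adjusted p = 1.35e-10). Z00049267-1 was at 0.02 and -0.23 at P5 and 5.97 and 6.09 in adults, and its reference signal was also 2.28 higher on the adult arrays. The ratio, which divides by the reference signal, rose by 6.14 for this probe, and with Cy3 alone the rise was 8.48. Why the reference signal differed was not tested.

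For the probes without P5 signal a fold change is a lower bound, the adult Cy3 signal against the weakest signal that counted as detected on the P5 arrays or the probe's own, whichever was higher. Such bounds rest on the Cy3 channel, and no array had its dyes exchanged. Z00031175-1 (-3.43 and -4.32 at P5, 3.67 and 3.14 in adults) was at least 16.8-fold higher in adults. Z00033477-1 was at 0.00 on both P5 arrays and at 5.53 and 5.94 in adults, at least 9.45-fold higher. The scanner software writes exactly 0 where neither channel could be told from background. Z00027115-1 was at least 7.32-fold higher, Z00035180-1 at least 4.41-fold (4.405), Z00068916-1 at least 4.23-fold, Z00026847-1 at least 4.09-fold and Z00062040-1 at least 2.75-fold.

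The 12 largest falls (7.27 to 10.95 in log2) were of transcripts that both P5 arrays detected. In 9 of them Cy3 was not well above background on either adult array, 2 were detected on 1 adult array and 1 on both. Z00018229-1 had log2 ratios of 6.12 and 5.95 at P5 and -5.37 and -4.46 in adults, a fall of 10.95 ± 0.24 (SE, limma adjusted p = 4.19e-11), and was at least 146-fold lower by the Cy3 bound. Z00034035-1 was detected on all 4 arrays, at 3.44 and 3.50 at P5 and -6.10 and -6.05 in adults. It fell by 9.55 ± 0.08 (limma adjusted p = 6.07e-15), which is 748-fold. Replicates of this probe lay close together at both ages.

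Z00000799-1 was at 5.77 and 5.65 at P5 and at -4.61 and -2.18 in adults, at least 36.0-fold lower. Its adult arrays lay far apart, and both lay below both P5 arrays. Z00050912-1 was at 8.37 and 7.86 at P5 and at 0.00 on both adult arrays, at least 12.7-fold lower. Z00026015-1 was at 7.77 and 7.58 at P5 and at 0.00 on both adult arrays, at least 34.0-fold lower. Both transcripts stood far above the reference at P5 and were not detected on either adult array.

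Of the other falls, Z00076319-1 was at least 37.0-fold lower in adults, Z00022399-1 at least 36.2-fold, Z00040631-1 at least 20.9-fold and Z00026122-1 at least 15.4-fold. Z00025746-1 (4.70 and 4.64 at P5, -2.22 and -3.75 in adults) and Z00075955-1 (6.99 and 7.02 at P5, 0.10 and -1.30 in adults) were each detected on 1 adult array. The reference channel was called for 5 of the 12 falls and 4 of the 12 rises, against 5.16% of all probes. Its changes ran from -2.52 to 2.28 over both sets. Where it was called, it changed in the same direction as the ratio. With Cy3 alone all 12 rises and all 12 falls were called in the same direction, with changes of at least 5.75 and 7.65.

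**Figure D2:**
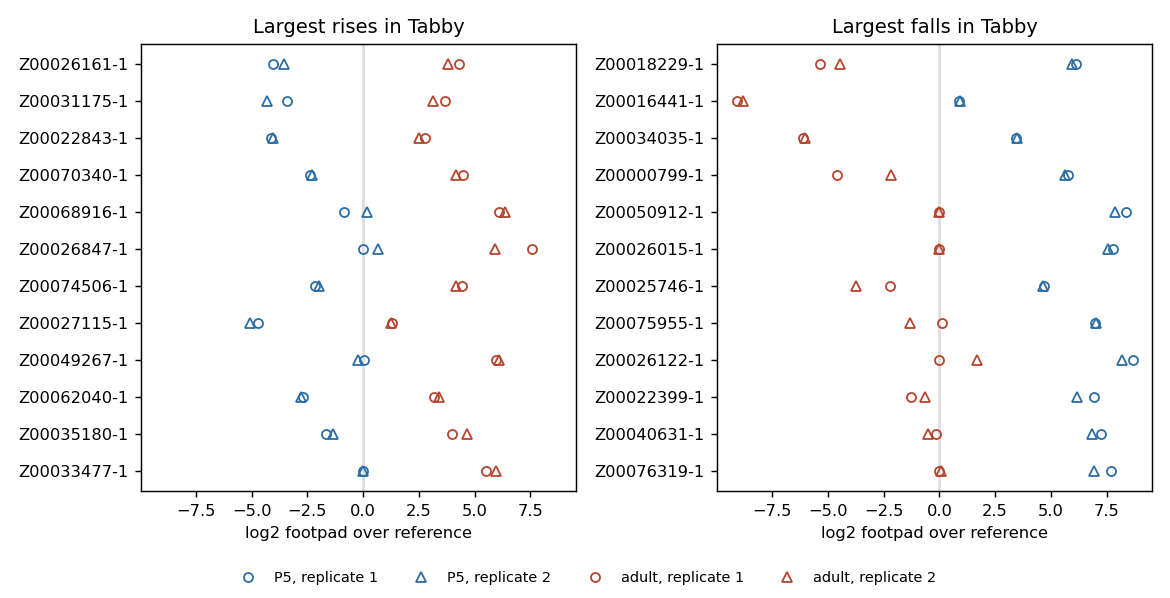
Log2 ratio of footpad over reference on each of the 4 Tabby arrays for the 12 probes with the largest rise and the 12 with the largest fall from P5 (blue) to adult (red), with circles for replicate 1 and triangles for replicate 2. Blue and red symbols do not overlap for any of the 24 probes, as the choice of probes required, and Z00000799-1 has the widest adult pair among the falls, at -4.61 and -2.18.

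Z00016441-1 had a pattern of its own. It stood at 0.89 and 0.93 in Tabby P5 and at -9.09 and -8.81 in Tabby adults, so it fell by 9.86 ± 1.60 (SE, limma adjusted p = 0.000225), at least 34.0-fold by the Cy3 bound. Over the series it was high on both arrays of Tabby P1 (1.09 and 1.02), Tabby P3 (0.80 and 0.70) and Tabby P5, and low on both arrays of Tabby E17.5 (-7.33 and -9.08). In WT it was low at P1, P3, P5 and adult, with values from -9.86 to -7.30, and at E17.5 the replicates stood at 2.10 and -4.87. Replicates agreed on the high or low state in every group but WT E17.5.

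Of 739 tested pairs of probes that share at least 30 bases, both probes were called in 368, only 1 in 101 and neither in 270. In the 368 pairs the directions were the same in all, and the 2 changes differed by a median of 0.06. The 2 pairs with the largest mean change, chosen after their values were seen, both fell. Z00025051-1, shown above, was at 3.58 and 3.47 at P5 and -3.64 and -1.56 in adults. Z00074756-1, which shares 46 bases with it, was at 3.67 and 3.65 at P5 and -3.25 and -2.22 in adults. Z00025051-1 fell by 6.12 (limma adjusted p = 2.5e-07) and Z00074756-1 fell by 6.40 (limma adjusted p = 1.48e-09), and adult replicate 1 was the lower of the 2 arrays in both. Z00071847-1 and Z00073883-1 share 53 bases. The former fell by 6.59 and the latter fell by 6.66.

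Most of the 12 largest falls came from a high ratio at every earlier Tabby stage. For 11 of the 12 largest falls the Tabby group means at E17.5, P1, P3 and P5 all lay between 3.47 and 9.76, and the adult means between -6.08 and 0.83. The exception was Z00016441-1. For the 510 probes that were at least 8-fold lower in Tabby adults, the median of the Tabby group means was 3.35 (E17.5), 2.78 (P1), 2.81 (P3), 2.92 (P5) and, in adults, -1.06 (-1.055). Since P5 and adult chose these probes, their last step is a description.

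Among the 12 largest rises, 3 also had a high ratio before birth, by a Tabby E17.5 mean over 4 log2 above the P5 mean. Z00026161-1 averaged 3.44 in Tabby E17.5 pads, then -5.38, -3.46 and -3.82 over P1, P3 and P5, and 4.05 in adults. Z00027115-1 averaged 2.71 at Tabby E17.5, -5.53 at P1, -4.89 at P5 and 1.27 in adults. Z00031175-1 averaged 1.24 at Tabby E17.5, -4.61 at P1, -3.88 at P5 and 3.41 in adults. Z00027115-1 and Z00031175-1 were not well above background on any Tabby array from P1 to P5, nor was Z00026161-1 at Tabby P1. At Tabby E17.5, Z00027115-1 was well above background on replicate 2 only. The drops from E17.5 to undetected stages therefore have no measured size. The ratios of these 3 probes were high on the E17.5 and adult slides and low on the 3 slides between. Those 3 slides were scanned on 1 day, and the E17.5 and adult slides each on another. The other 9 rises had Tabby means between -5.57 and 3.21 from E17.5 to P5 and between 2.62 and 6.75 in adults.

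**Figure D3:**
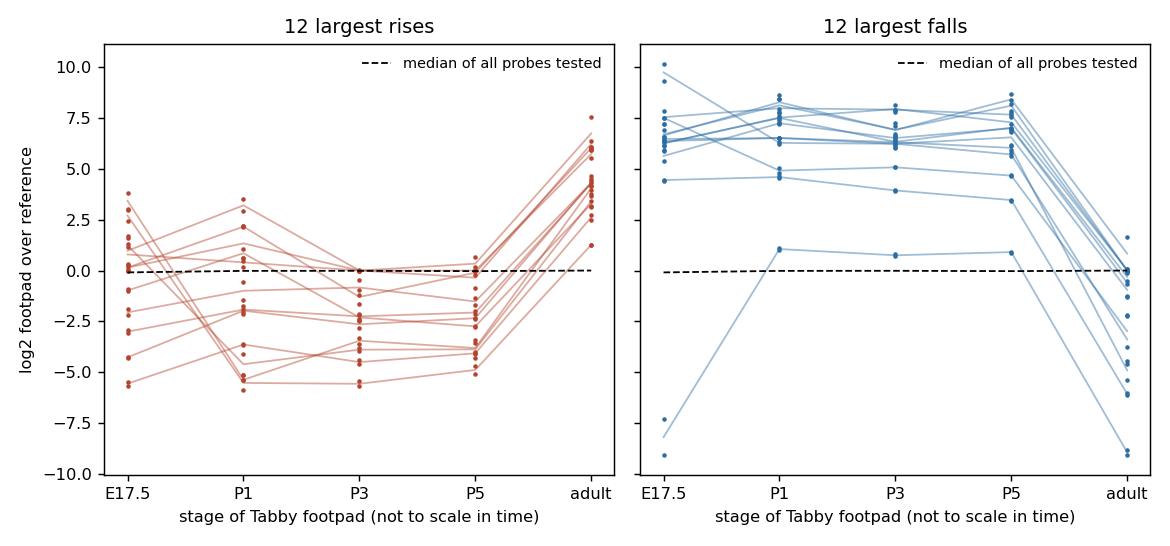
Log2 ratio of footpad over reference at the 5 Tabby stages for the 12 largest rises (left) and the 12 largest falls (right), with dots for single arrays, lines through the means of 2 arrays and the dashed line for the median of all probes tested. In 11 of the falls the early means stay between 3.47 and 9.76, and 3 of the rises start high at E17.5, pass through a low from P1 to P5 and end high in adults.

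Detection was counted from the same Cy3 signals that enter the ratio, so its overlap with the calls is a description. At P5 and in adults alike, 26060 probes were well above background on both Tabby arrays. Both P5 arrays but neither adult array detected 761 probes, of which 665 were called lower, where 26.3% of all probes were. Both adult arrays but neither P5 array detected 494, of which 279 were called higher, where 31% of all probes were. In WT, 398 of the 761 and 262 of the 494 switched in the same way on all 4 arrays. The share of probes detected was 68.8% and 68% on the P5 arrays and 71.1% and 64.7% on the adult arrays.

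Probes with the collagen-type codon pattern fell. Of the 4 such probes, 3 were lower in adults, against 26.3% of all probes, and their median fitted change was -1.80 against 0.08 for all probes tested, with 1 of them not detected in adults. The one with the highest ratio at P5, Z00070993-1, was at 4.08 and 4.04 at P5 and at 1.16 and 1.98 in adults. It fell by 2.49 ± 0.32 (SE, limma adjusted p = 3.18e-05). Z00033873-1 was at 1.16 and 0.42 at P5 and -0.86 and -2.07 in adults, and was called lower (limma adjusted p = 0.000617). It was not well above background on either adult array, and by the Cy3 bound it was at least 1.25-fold lower. Z00033896-1 was at 1.87 and 1.76 at P5 and 0.12 and 0.83 in adults, a fall of 1.34 ± 0.17 (limma adjusted p = 3.84e-05). For these probes both adult arrays lay below both P5 arrays. The last, Z00022821-1, was at 0.52 and 0.28 at P5 and 0.27 and -0.14 in adults (limma adjusted p = 0.0755). The 4 probes share no stretch longer than 8 bases, so they read different sequences. In WT the same 3 were called lower.

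Of 20 tested probes with the zinc finger linker, 12 were lower in adults (60%, against 26.3% of all probes), 1 was higher (5%, against 31%) and 7 were not called, with a median change of -0.73 against 0.08 for all probes. The linker was found in 23 probes of the array on the probe strand and in 2 on the other. Z00025747-1 was at -1.53 and -1.91 at P5 and -3.16 and -3.69 in adults, a fall of 1.70 ± 0.28 (limma adjusted p = 0.000225), with 1 of its adult arrays not well above background. Z00046966-1 was at -0.70 and -0.82 at P5 and -2.28 and -2.06 in adults, a fall of 1.41 ± 0.08 (limma adjusted p = 3.77e-08). Z00025631-1 was the one that rose, from 0.47 and 0.57 to 1.68 and 1.44, by 1.04 ± 0.10 (limma adjusted p = 3.55e-06). Some of these probes share up to 27 bases, so transcripts of the family may be read by more than 1 probe. Of the 12 falls, 2 were lost with Cy3 alone (Z00075749-1 at -0.27, limma adjusted p = 0.26, and Z00059930-1 at -0.12, limma adjusted p = 0.602).

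The same pattern search gave smaller groups. The third-helix motif of homeodomains, of a family of developmental transcription factors, was found in 9 tested probes, of which 3 fell (33.3%, against 26.3% of all probes), 1 rose (11.1%, against 31%) and 5 were not called. The share that fell was near that of all probes, and the motif was found in 13 probes of the array on the probe strand and in 4 on the other. Z00026180-1 rose from -0.67 and -0.74 at P5 to 1.37 and 1.31 in adults, by 2.05 (limma adjusted p = 3.44e-09). Z00037245-1 fell from 0.29 and 0.39 to -1.15 and -0.81, by 1.32 (limma adjusted p = 2.69e-07). A frame with at least 10 glycine codons and no collagen pattern was found in 5 tested probes. Stop codons were not excluded from this frame. Of the 5, 3 rose (60%, against 31% of all probes) and 1 fell (20%, against 26.3%). Z00058131-1 rose from 3.75 and 3.93 to 5.19 and 5.02, and Z00033253-1 from 2.16 and 2.31 to 3.53 and 2.98. Their GC content was 80% and 70%, and their reference signal was also 0.82 and 0.22 higher on the adult arrays.

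Of 11 cysteine-rich probes tested, 5 fell in Tabby from P5 to adult (45.5%, against 26.3% of all probes), 2 rose (18.2%, against 31%) and 4 were not called. The frame was found in 12 probes of the array on the probe strand and in 6 on the other. Z00076571-1 was at 1.49 and 1.26 at Tabby P5 and -0.63 and -0.76 in Tabby adults, a fall of 2.07 ± 0.17 (limma adjusted p = 7.67e-07). In WT it fell from 4.31 and 4.18 to -0.86 and -0.84, by 5.10. The 2 genotypes met in adults and differed at P5. The difference between the changes was 3.03 ± 0.24 (limma adjusted p = 2.79e-05).

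Z00028279-1 changed by -1.22 in Tabby and -3.97 in WT. Z00045261-1 changed by -1.01 in Tabby and -4.43 in WT. Z00060912-1 was at 0.30 and 0.49 at Tabby P5 and 0.15 and 0.21 in Tabby adults (limma adjusted p = 0.311), while WT went from 3.04 and 2.80 to 0.33 and 0.02. Z00066950-1 was at 0.13 and 0.09 at Tabby P5 and -0.10 and -0.20 in Tabby adults (limma adjusted p = 0.269), while WT went from 1.41 and 1.59 to 0.13 and -0.05. These 5 probes were named because the difference between genotypes was called for them. It was called, in the more positive direction, for 5 of the 11 cysteine-rich probes tested, against 0.685% of all probes. For Z00066950-1 it was lost without either WT P5, either Tabby P5 or either WT adult array and without Tabby adult replicate 1 (limma adjusted p = 0.0779 to 0.15). The 5 probes share up to 29 bases and may read members of 1 family.

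For the other 6 cysteine-rich probes the difference between genotypes was not called. Z00024962-1 rose from 4.90 and 5.02 to 5.86 and 5.67 in Tabby, by 0.81 ± 0.15 (limma adjusted p = 0.000532). Its reference signal was also 2.72 higher on the adult arrays, and with Cy3 alone it rose by 3.59. Z00024264-1 was at 0.16 and -0.20 at Tabby P5 and at -0.73 and -3.31 in Tabby adults, a fall of 2.00 (limma adjusted p = 0.0164). Without adult replicate 2 the fall was 0.71 (limma adjusted p = 0.188), and without P5 replicate 1 it was 1.82 (limma adjusted p = 0.083). Z00024125-1 was called lower by 0.24 and lay at 0.01 (0.005) with Cy3 alone. Z00063670-1, detected on 1 array of each age, changed by 0.20 in Tabby (limma adjusted p = 0.698) and by 1.11 in WT (limma adjusted p = 0.0333).

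For 2 of the 5 tested trypsin-type probes the Tabby change was called more negative, against 1.91% of all probes. Z00076669-1 was at -1.61 and -1.68 at Tabby P5 and -1.04 and -0.72 in Tabby adults, a rise of 0.77 ± 0.22 (limma adjusted p = 0.00978). In WT it went from -2.12 and -2.10 to 2.99 and 2.13, a rise of 4.67, and the changes differed by -3.90 ± 0.31 (limma adjusted p = 2.76e-05). Z00073950-1 was at 1.34 and 1.21 at Tabby P5 and 1.92 and 1.78 in Tabby adults (0.58 ± 0.26, limma adjusted p = 0.0756), and in WT at 0.69 and 0.90 and then 3.75 and 2.93. Its changes differed by -1.97 ± 0.37 (limma adjusted p = 0.0121). Both WT adult arrays lay above both Tabby adult arrays for each probe. The 2 probes share 14 bases. Of the other 3 tested probes with the motif, Z00077367-1 fell by 1.08, Z00070683-1 rose by 0.31 and Z00057878-1 was called higher. The last was detected on no P5 array and 1 adult array, and its change has no measured size here. The motif occurs in 5 probes of the array on the probe strand and in 1 on the other.

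**Figure D4:**
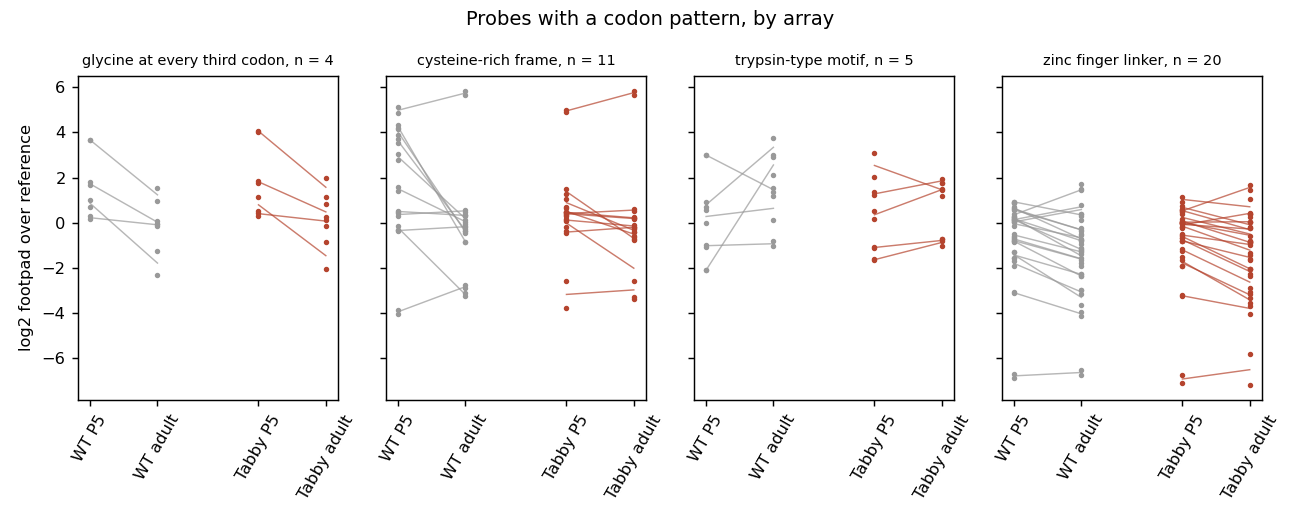
Log2 ratio of footpad over reference at P5 and in adults, in WT (grey) and Tabby (red), for tested probes with 4 codon patterns, with dots for single arrays and lines between the means of 2 arrays. Of the 4 collagen-type probes 3 fall in both genotypes, 5 cysteine-rich probes start higher at WT P5 than at Tabby P5, and 2 trypsin-type probes end higher in WT adults than in Tabby adults.

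A gene could be named for 105 tested probes, those that lie exactly in the promoter windows and within the span of 1 RefSeq gene on their strand (GRCm38.p6). A match outside these windows was not searched, and the table gives no exons, so exon, intron and UTR are not stated. Of the 105, 47 rose and 12 fell, where 31% of all probes rose and 26.3% fell, and 46 were not called, with a median change of 0.32 against 0.08 for all probes. Rpl38, a protein of the large ribosomal subunit, was read by 2 overlapping probes at chr11:114668526-114668597. Z00075310-1 rose from -4.32 and -4.18 at P5 to -3.01 and -2.48 in adults, by 1.50 ± 0.19 (limma adjusted p = 3.42e-05), and Z00032009-1 rose by 1.45. H4c8, a histone H4 gene (Z00074088-1, chr13:23531101-23531160), was at -0.53 and -1.14 at P5 and 1.12 and 1.41 in adults, a rise of 2.10 ± 0.36 (limma adjusted p = 0.000316). A second probe of H4c8, Z00038251-1, overlaps it by fewer than 30 bases and was at -0.79 and -0.93 at P5 and -0.65 and -0.61 in adults (limma adjusted p = 0.109), so the 2 probes of this gene disagreed. The first was well above background on 1 of the 2 P5 arrays.

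Abhd6, a lipase that cleaves monoacylglycerols (Z00039721-1, chr14:8055589-8055648), rose from 1.50 and 1.54 to 2.56 and 2.69, by 1.11 ± 0.07 (limma adjusted p = 1.11e-07). Tor1aip2, a torsin-binding protein of the endoplasmic reticulum (Z00073967-1, chr1:156035836-156035895), rose from 3.70 and 3.91 to 4.95 and 5.14, by 1.24. Gnl3, nucleostemin of the nucleolus (Z00075018-1), rose by 1.08. The other rises in the top 10 were the RefSeq models Gm36608, Gm4718, Gm9222, Gm9828 and Gm11423. Gm36608 (Z00067181-1) was not detected at P5, where its arrays stood at -1.91 and 1.13, and was at least 1.69-fold (1.685) higher in adults.

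Among the named falls the largest was at Cntn5, a neural cell adhesion molecule of the contactin family (Z00062327-1, chr9:10904572-10904631). It was at 2.50 and 1.91 at P5 and -1.83 and -1.54 in adults, a fall of 3.89 ± 0.53 (limma adjusted p = 5.43e-05), and was at least 2.02-fold lower by the Cy3 bound. Podxl2, a sialomucin that binds selectins (Z00056163-1, chr6:88842740-88842799), fell from 2.14 and 2.07 to 0.22 and 0.72, by 1.64 ± 0.13 (limma adjusted p = 6.09e-07). Zbtb8a, a zinc finger protein (Z00010249-1), fell from -1.39 and -1.44 to -2.48 and -2.37, by 1.01 ± 0.07 (limma adjusted p = 2.69e-07).

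C1qtnf3, a secreted protein of the C1q and TNF-related family with a collagen-like stalk (Z00024971-1, chr15:10978653-10978712), went from 3.62 and 3.47 to 1.77 and 2.22, a fall of 1.55 ± 0.17 (limma adjusted p = 7.66e-06). Its reference signal was 4.48 lower on the adult arrays, and with Cy3 alone the fall was 5.97, so the size of this fall depends on the channel used. Other falls were at S100a7a, an S100 protein of the epidermis (Z00077693-1, chr3:90654247-90654306, from 0.78 and 0.75 to 0.26 and 0.02), at Renbp, the renin-binding protein (Z00075190-1, by 0.62), and at Fam180a, Gm1673, Gm6592 and Plppr5, all between 0.62 and 1.55 in size. Plppr5 (Z00063811-1, by 0.81) was not called with Cy3 alone (limma adjusted p = 0.144) or without either P5 array or adult replicate 2 (limma adjusted p = 0.0507 to 0.156).

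Most of the maturation was shared with WT. In WT, 19050 probes were called between P5 and adult (59.3%), 9935 higher in adults (30.9%) and 9115 lower (28.4%). Both genotypes called 15098 probes in the same direction, which is 81.9% of the Tabby calls and 79.3% of the WT calls, and 165 in opposite directions. Across the 32124 probes the 2 changes correlated at r = 0.86, as a description, since probes are not independent and the WT and Tabby arrays of a stage shared a slide. All 12 largest Tabby rises were called in WT too (smallest change 4.71). Of the 12 largest falls, 11 were called in WT, the exception being Z00016441-1.

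The change itself differed between genotypes for 833 probes (2.59%, limma interaction, Benjamini-Hochberg), which is a comparison within slides. On every slide WT held positions 1 and 2 and Tabby positions 3 and 4. A position effect that differed between the P5 and adult slides cannot be told apart from this difference. The Tabby change was the more negative for 613 (1.91%) and the more positive for 220 (0.685%). The counts rested on single arrays: 3283 were called without Tabby adult replicate 2 (1653 more negative), 1318 without Tabby adult replicate 1, 516 without Tabby P5 replicate 1, 487 without WT P5 replicate 1 and 547 without WT P5 replicate 2. Where 1 array was left in a group, it was taken to vary like the other groups. Of the 613, 136 rose in WT and were not called in Tabby, 121 rose in WT and fell in Tabby, 138 rose in both, 103 fell in both and 115 fell in Tabby and were not called in WT. Of the 220, 77 fell in both, 72 fell in WT and were not called in Tabby, 30 fell in WT and rose in Tabby, 22 rose in Tabby and were not called in WT, and 19 rose in both.

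In the more negative set the genotypes lay further apart in adults than at P5, and in the more positive set further apart at P5 than in adults. For the 613 probes the median level was -0.06 in WT P5 and -0.16 in Tabby P5, and 0.68 (0.675) in WT adults and -0.63 in Tabby adults. For the 220 probes it was 0.65 in WT P5 and -0.10 in Tabby P5, and -0.38 in WT adults and -0.10 in Tabby adults. These levels are from the arrays that chose the probes and are a description.

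Among the probes with the smallest p in the more negative set, the WT level rose in all 5. In Tabby 3 fell, 1 was not detected at either age and 1 rose by less. These sequences are shown because they mark what did not rise in the maturing Tabby pad:
Z00051777-1: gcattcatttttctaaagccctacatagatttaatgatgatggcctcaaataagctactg
Z00008552-1: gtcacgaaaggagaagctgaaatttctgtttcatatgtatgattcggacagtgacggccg
Z00057569-1: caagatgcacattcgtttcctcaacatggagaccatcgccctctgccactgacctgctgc

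Z00051777-1 was at 6.94 and 6.33 in WT adults and at 0.00 on both Tabby adult arrays, with 0.10 and 0.00 at Tabby P5. It was detected on both WT adult arrays and on none of the WT P5, Tabby P5 or Tabby adult arrays. Z00008552-1 fell in Tabby from 1.11 and 1.19 to 0.02 and -0.09, by 1.19 ± 0.09 (limma adjusted p = 5.11e-07), and rose in WT from 1.09 and 1.18 to 2.97 and 2.86. The changes differed by -2.97 ± 0.13 (limma adjusted p = 7.74e-07). Z00057569-1 fell in Tabby by 0.98 and rose in WT by 1.58, and Z00075375-1 fell in Tabby by 0.85 and rose in WT by 2.03. At P5 the genotypes lay close together for these probes, and in adults they lay apart. Z00000696-1 rose in both, by 0.30 in Tabby and 2.60 in WT. The one probe with a symbol, at Tmc4, of the transmembrane channel-like family (Z00056199-1), was at -0.30 and -0.22 at Tabby P5 and -0.41 and -0.54 in Tabby adults, and rose in WT from -0.14 and -0.10 to 0.90 and 0.58.

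Among the more positive, the leading probes were highest at WT P5. The sequences of 2 are shown because they mark a P5 signal that was far lower or not detected in the Tabby pad:
Z00025178-1: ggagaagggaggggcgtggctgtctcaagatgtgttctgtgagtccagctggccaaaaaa
Z00047306-1: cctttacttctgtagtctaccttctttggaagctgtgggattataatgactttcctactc

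Z00025178-1 was at -4.14 and -3.79 at Tabby P5 and -4.24 and -4.15 in Tabby adults (limma adjusted p = 0.254), and at 0.80 and 0.46 at WT P5 and -4.04 and -4.12 in WT adults. Z00047306-1 was at 0.00 on all 4 Tabby arrays and at 3.90 and 3.57 at WT P5. Z00056665-1 was at 5.78 and 5.75 at WT P5 and was not well above background on any of the 4 Tabby arrays. Z00026687-1 fell in Tabby from 0.88 and 0.93 to 0.00 and 0.17 and in WT from 4.30 and 4.04 to 0.09 and 0.07. The cysteine-rich Z00045261-1 also belonged to this set.

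**Figure D5:**
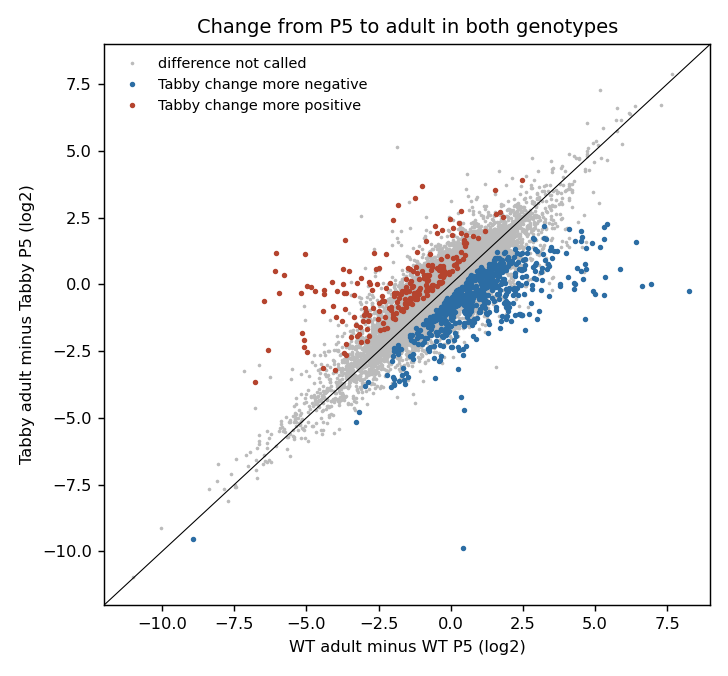
Change from P5 to adult in Tabby against the same change in WT, in log2, for the 32124 probes tested, with the line of equal change. Over all of these probes r = 0.86. For grey probes the difference was not called. The 613 blue probes with a more negative Tabby change lie below the line and the 220 red probes with a more positive one above it.

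The mean GC content was 44.9% (44.85) over all probes tested, 46.4% for probes called higher in Tabby adults and 42.8% for those called lower. It was 41.3% for those at least 8-fold lower and 44.6% for those at least 8-fold higher. In the reference channel it was 44.8% for probes called higher and 44.5% for those called lower. Of 2394 tested probes that hold AATAAA, the polyadenylation hexamer that lies near the ends of transcripts, 836 were lower in adults (34.9%, against 26.3% of all probes) and 579 higher (24.2%, against 31%). The hexamer was found in 2911 probes of the array on the probe strand and in 1413 on the other. The part of composition and of position in the transcript in these changes was not tested.

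The 2 adult Tabby arrays, on which the count of genotype differences rested as given above, disagreed most at single probes. The adult replicates were over 2 log2 apart for 297 probes and the P5 replicates for 92. Of the 297, 85 were called between P5 and adult, where 57.4% of all probes were. Z00023825-1 was at 8.60 and 0.70 in Tabby adults, with 0.36 and -1.34 at Tabby P5, and was called higher (limma adjusted p = 0.0226). Z00076473-1 was at 6.99 and 0.00 in Tabby adults (limma adjusted p = 0.302), with 1.67 and 1.38 at Tabby P5. Z00026869-1 was at -3.25 and -9.33 in Tabby adults and at -5.08 and -5.04 at Tabby P5. These 3 were chosen for their gap after the values were seen.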

How the data were processed

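The deposited files are scanner output of 2-colour Agilent arrays (Feature Extraction 9.5.1.1, per the file headers), with a log10 ratio of Cy5 over Cy3 after the software's background and dye normalization, processed signal intensity per channel and quality flags, as the authors deposited them. The design file names an older mouse build and gives no probe position. Per the labels, Cy3 held footpad RNA and Cy5 the reference on all arrays, with 2 biological replicates per group. The log10 ratio was turned in sign and brought to log2, spots flagged as outliers were left out (5 to 9 on the 4 arrays compared) and spots of 1 probe were averaged. The median processed Cy3 signal was 166 to 251 on the 4 arrays. The number of arrays limits the precision.

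limma 3.58.1 (R 4.3.3) fitted 10 group means over 20 arrays with an empirical Bayes spread (10 residual and 1.75 prior degrees of freedom), and p-values were adjusted by Benjamini-Hochberg over all probes tested, with a threshold of 0.05. The test of the genotype difference is the interaction contrast of the same fit. A bound compares Cy3 after loess and quantile normalization of the channels with the lowest signal well above background. The fit was checked on simulated arrays.

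The members, gene lists and tests were chosen with earlier results of these data known. Codon patterns were written by hand and searched on both strands. Probes were named by rule: per direction the 12 largest changes with an adjusted p under 0.05, arrays of the 2 groups not overlapping and Cy3 well above background on both arrays of the higher group, 10 more among probes with a symbol, and for the genotype difference the 5 smallest p. Symbols came from exact matches of the 60-base probes to RefSeq promoter windows (250 bases before to 50 after a start, GRCm38.p6): 257 probes matched 1 place, 204 of them tested, and 105 of these lay in 1 gene on their strand. Coordinates are those of the matched probe. The deposited value table of the series held 25030 probes in log10, all matched by spot number. It equals the log10 signal of the footpad channel over the reference channel plus a constant per probe within 0.001 for 64.4% of probes, its column medians were 2.53 to 2.59, and the constant's origin is unknown. Other settings were the value of a probe, scaling, filters, arrays in the fit, weights, prior and replicate block.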

Additional observations from a re-analysis of the deposited data

Results flagged for a closer look

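The change from P5 to adult differed between Tabby and WT for 833 probes (limma interaction, Benjamini-Hochberg), and the probes named with such a difference are collected here as the Tabby change minus the WT change in log2. Among those with the smallest p, it was 4.48 for Z00025178-1, 3.27 for Z00026687-1, 3.73 for Z00047306-1, 3.42 for Z00045261-1 and 6.10 for Z00056665-1. It was -6.69 for Z00051777-1, -2.97 for Z00008552-1, -2.56 for Z00057569-1, -2.88 for Z00075375-1 and -2.29 for Z00000696-1. Tmc4 (Z00056199-1) was at -1.08.

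The other cysteine-rich probes were at 3.03 for Z00076571-1, 2.74 for Z00028279-1, 1.20 for Z00066950-1 and 2.53 for Z00060912-1. The trypsin-type probes were at -3.90 for Z00076669-1 and -1.97 for Z00073950-1. Among the largest falls, the difference was -10.30 for Z00016441-1, where the 2 WT E17.5 replicates disagreed, and -0.60 for Z00034035-1, which fell in both genotypes.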

How the results depend on the processing

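The number of probes called between Tabby P5 and adult (18432) was 12259 of the 19626 tested in the deposited value table (62.5%), 11717 with only the 4 Tabby arrays in the fit and 15423 to 17715 with 1 array left out. It was 14045 to 18940 under the other settings. The number whose change differed between genotypes (833) was 212 with only the 8 arrays compared, 515 with array weights and 487 to 3283 with 1 array left out. In the value table it was 1161, of which 42.5% were more positive, against 26.4%. The median change of all probes was 0.18 (0.177) with Cy3 alone and 0.03 (0.034) with normexp. Of 71 named changes in Tabby, 55 kept their direction and their call under every setting that could test them. Of 17 named genotype differences, 14 did. Z00024125-1 turned to 0.005 with Cy3 alone (limma adjusted p = 0.966). With the replicate number as a block, 18486 and 816 probes were called. The numbers did not pair the samples: deviations of same-numbered arrays correlated at -0.0271 between Tabby P5 and adult, -0.0022 between WT P5 and adult, -0.0183 between genotypes at P5 and 0.138 between genotypes in adults. Low Cy3 signal limits the folds given as bounds, and age cannot be told apart from slide and scan.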
